A study of Arabidopsis thaliana with 58 samples.

Results

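Expansins are small secreted proteins of the plant cell wall that let the wall yield to turgor pressure, most strongly in acid walls, without cutting its polymers. Xyloglucan endotransglucosylase/hydrolases (XTH enzymes) cut xyloglucan, the hemicellulose that coats cellulose microfibrils, and rejoin the cut end to another chain or to water. In growing leaves both families are known for the stage after cell division has slowed, when cells enlarge. The genes described here are 8 alpha-expansins (EXPA1, EXPA3, EXPA4, EXPA5, EXPA6, EXPA8, EXPA10 and EXPA11) and the xyloglucan enzyme gene XTH4, taken as the rows of these 9 loci in each of 7 expression tables of Arabidopsis thaliana grown with or without magnesium. All 9 loci were listed in every table, of 23898 genes listed in all. The largest decreases were found in expanding leaves after 8 days without Mg, in EXPA8 and EXPA11.

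The study asked how gene expression changes as Mg deficiency sets in. Wild-type Col-0 plants were grown in hydroponics at 1.5 mM Mg and, from 10 days after germination, either kept there (control) or moved to 0 mM Mg with the sulphate supplied as the sodium salt (Mg-deficient). Mature leaves (the first pair) and expanding leaves (the next pair) were taken on days 3, 5 and 8, at ages of 13, 15 and 18 days, and roots on day 3. Of the 58 libraries, mature leaves gave 4 control and 3 Mg-deficient libraries for day 3, 5 and 3 for day 5 and 4 and 4 for day 8. Expanding leaves gave 5 and 4 for day 3, 5 and 3 for day 5 and 4 and 5 for day 8, and roots gave 6 and 3. Each library was a composite of tissue from 2 or 3 plants, so that p-values measure the spread between composites. Whether mature and expanding composites came from the same plants is not given in the sources used here. In whole leaves, fewer cells of a type and less RNA per cell cannot be told apart.

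The deposited value, called signal here, is a read count adjusted by the authors to a library size common to its table, and each table was adjusted on its own. Recovered reads were 545998 to 4016485 per library. On day 8 the control libraries held reads of fewer genes than the Mg-deficient ones: 12275 to 15172 against 18422 to 18718 in expanding leaves, and 6908 to 14876 against 12541 to 17229 in mature leaves. In expanding leaves on day 5, Mg-deficient library 1 stood apart from its group, with 12656 genes against 16654 and 15948 in the other libraries, and the results of that table that it changed are also given without it. The 5 root marker genes summed to 1000 to 1516 SPM in root libraries (SPM, signal per 1000000 of the library's total signal) and to at most 15.0 SPM in leaf libraries, where the 5 leaf markers summed to 6729 to 51672 SPM. The meristem marker KNAT1 was read in roots, at 0.649 to 3.52 SPM. A gene was called lower or higher where its adjusted p in limma, over all tested genes of its table and on log2(signal + 1), was under 0.05.

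On the TAIR10.1 assembly, 5 of the 9 genes lie on chromosome 2. They are EXPA3 (AT2G37640, 15787523 to 15790139), EXPA4 (AT2G39700, 16543832 to 16545746), EXPA6 (AT2G28950, 12431338 to 12433796) and EXPA8 (AT2G40610, 16948791 to 16950705) on the minus strand, and XTH4 (AT2G06850, 2763449 to 2765743) on the plus strand. Chromosome 1 holds EXPA1 (AT1G69530, 26141726 to 26143538) and EXPA10 (AT1G26770, 9259432 to 9261313) on the plus strand and EXPA11 (AT1G20190, 6998335 to 6999839) on the minus strand. EXPA5 (AT3G29030, 11011262 to 11013451) lies on the minus strand of chromosome 3. EXPA10 and XTH4 have 4 exons and the others 3, with exonic lengths of 1325 bases (EXPA8) to 1783 bases (EXPA3). No stretch of 50 bases of their exons occurred elsewhere in the genome, so that exact reads of that length within an exon match single loci. Reads with mismatches or across exon junctions were not examined.

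The 250 bases before the annotated start are printed for the 3 genes that fell most on day 8, EXPA8, EXPA11 and EXPA5, and for EXPA4, which had the smallest log2 fold change of the 9. They were read from the RefSeq TAIR10.1 genome at chr2:16950706-16950955, chr1:6999840-7000089, chr3:11013452-11013701 and chr2:16545747-16545996, all on the minus strand and written 5′ to 3′. Capitals mark matches to any of 6 motifs: the G-box CACGTG and E-box CANNTG (a G-box is also an E-box), the brassinosteroid response element CGTGNG, the auxin response element TGTCTC and the W-box TTGAC, each searched on both strands, and TATAAA, searched on the gene's strand.
EXPA8: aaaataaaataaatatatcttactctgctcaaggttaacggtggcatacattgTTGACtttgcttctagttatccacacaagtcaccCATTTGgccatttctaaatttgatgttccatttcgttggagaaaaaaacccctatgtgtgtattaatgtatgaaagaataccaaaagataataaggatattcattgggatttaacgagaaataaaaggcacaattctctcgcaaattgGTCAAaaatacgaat
EXPA11: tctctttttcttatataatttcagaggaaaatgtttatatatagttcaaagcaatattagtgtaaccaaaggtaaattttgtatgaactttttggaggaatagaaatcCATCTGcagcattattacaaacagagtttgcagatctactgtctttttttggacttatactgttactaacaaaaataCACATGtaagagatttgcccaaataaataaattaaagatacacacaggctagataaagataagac
EXPA5: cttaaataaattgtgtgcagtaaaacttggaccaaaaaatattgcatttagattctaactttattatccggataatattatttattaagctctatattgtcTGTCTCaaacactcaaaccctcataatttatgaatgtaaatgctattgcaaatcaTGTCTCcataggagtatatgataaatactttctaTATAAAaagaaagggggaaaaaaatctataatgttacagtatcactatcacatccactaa
EXPA4: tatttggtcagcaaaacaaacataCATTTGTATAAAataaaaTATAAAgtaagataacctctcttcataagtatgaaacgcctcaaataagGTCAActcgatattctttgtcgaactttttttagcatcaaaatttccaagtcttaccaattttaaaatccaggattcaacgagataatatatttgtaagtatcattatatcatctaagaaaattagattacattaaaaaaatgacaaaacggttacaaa
An E-box was found upstream of 7 of the 9 genes, against 55.3% of 27443 promoters of the same length. Counting -1 as the base before the start, the E-boxes began at -163 in EXPA8 and at -142 and -65 in EXPA11. The auxin response element was found in 3 of 9 (EXPA5, EXPA6 and EXPA10, against 10.9% of promoters), at -149 and -94 in EXPA5. The brassinosteroid response element was found in 2 of 9 (EXPA1 at -226 and EXPA6 at -90, against 12.5%), the W-box in EXPA4 and EXPA8 (44.9%) and TATAAA in EXPA4 and EXPA5 (32.9%). None of the 9 held a G-box in this window, which 6.49% of promoters did. A match is a description of the letters and not of a bound site.

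In expanding leaves on day 8, 6 of the 9 genes were lower in Mg-deficient plants and none was higher, where 14.9% of the 15523 genes tested were lower and 30.8% were higher. EXPA8 signal was 181, 408, 214 and 174 in the 4 control libraries and 3.00, 14.9, 14.6, 14.3 and 0.669 in the 5 Mg-deficient ones. Every Mg-deficient library lay far below every control, at 1 to 18 recovered reads. The mean fell from 244 ± 111 (SD, n = 4) to 9.5 ± 7.05 (SD, n = 5), a ratio of 0.0389, and the log2 fold change was -4.92 (SE 0.68, adjusted p = 8.7e-05).
EXPA11 signal was 339, 378, 329.8 and 578 in controls and 17.0, 18.9, 32.2, 22.9 and 15.9 without Mg. The Mg-deficient values were close to each other and did not overlap with the controls. The mean of 406 ± 117 in controls against 21.4 ± 6.6 in Mg-deficient leaves gave a ratio of 0.0527, and the log2 fold change was -4.19 (SE 0.30, 95% interval -4.84 to -3.54, adjusted p = 6.77e-07).

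EXPA5, EXPA6 and XTH4 also had groups that did not overlap on day 8. EXPA5, a brassinosteroid-responsive expansin, had signals of 96.5, 143, 40.3 and 142 in controls and 7.0, 26.9, 29.0, 12.1 and 24.2 in Mg-deficient leaves, and its log2 fold change was -2.36 (SE 0.52, adjusted p = 0.00256). The lowest control lay above all 5 Mg-deficient libraries. EXPA6 was 139, 157, 142 and 109 in controls against 23.0, 64.8, 34.5, 57.4 and 40.0 without Mg, and its log2 fold change was -1.69 (SE 0.33, adjusted p = 0.00118). The controls of this gene were close to each other, and the highest Mg-deficient library lay well below the lowest of them.
XTH4, the xyloglucan-modifying enzyme of the set, had signals of 155, 129, 155 and 138 in controls and 28.0, 52.8, 70.0, 115 and 21.9 in Mg-deficient leaves. Mg-deficient library 4 came close to the lowest control, and the log2 fold change was -1.55 (SE 0.43, adjusted p = 0.0104). Together with EXPA8 and EXPA11, 5 of the 9 genes were lower with no overlap between the groups, where 12.9% of all genes tested were.

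EXPA1, an expansin of guard cells and leaf blades, was also lower on day 8, with signals of 984, 778, 348 and 569.6 in controls and 102, 460.4, 386, 179.9 and 114 without Mg. The groups overlapped, since control 3 lay below Mg-deficient libraries 2 and 3, and the log2 fold change was -1.59 (SE 0.46, adjusted p = 0.0132). The calls of EXPA1 and XTH4 were lost when libraries were weighted by their quality in limma (adjusted p = 0.0727 and 0.0877), which left 4 genes lower. Over all genes the weights left 1832 lower and 4394 higher, against 2317 and 4774 without them.
Of the 3 genes not called, EXPA3 had signals of 31.0, 7.50, 26.4 and 8.48 in controls and 2.0, 7.97, 2.97, 11.8 and 1.65 in Mg-deficient leaves (log2 fold change -1.66, adjusted p = 0.0721). EXPA3 was called when control 2 or control 4 was left out. EXPA4 signals were 32.5, 46.8, 40.6 and 15.2 in controls and 44.0, 30.9, 42.2, 28.9 and 32.9 without Mg, with all Mg-deficient values inside the control range. Its log2 fold change was 0.17 with a 95% interval of -0.71 to 1.05. EXPA10, whose suppression in Arabidopsis is known to give smaller leaves, varied widely within the controls (76.0, 4.58, 34.8 and 0.823) and between Mg-deficient libraries (3.00, 28.9, 35.0, 70.5 and 15.8). Its log2 fold change of 0.77 had a 95% interval of -1.61 to 3.14, too wide to tell a decrease from an increase.

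**Figure D1:**
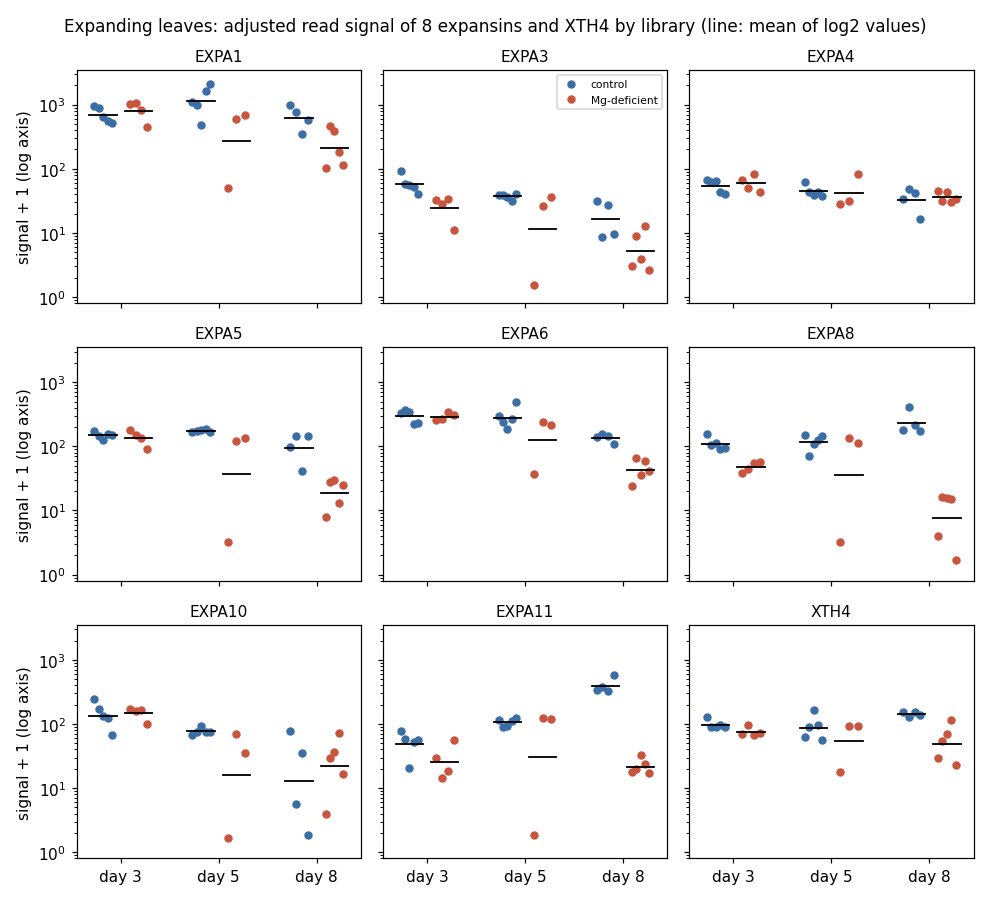
Signal + 1 of each gene in expanding leaves (log axis), one panel per gene, with a point per library for control (blue) and Mg-deficient (red) plants on days 3, 5 and 8 and a line at the mean of the log2 values. On day 8 the Mg-deficient points of EXPA5, EXPA6, EXPA8, EXPA11 and XTH4 lie below all control points, and on day 5 the lowest red point of each gene is Mg-deficient library 1.

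The median log2 fold change of the 9 genes on day 8 was -1.66, against 0.634 over all genes tested. Their summed signal was 833 to 1091 SPM in controls and 108 to 372 SPM in Mg-deficient leaves. Summed markers of several cell types were also lower in these libraries. The 5 leaf markers (photosynthetic genes) summed to 35334 to 38782 SPM in controls against 6729 to 12882 without Mg, and the 4 guard cell markers to 60.5 to 105 against 39.0 to 49.6. The 5 vascular markers summed to 213 to 305 against 87.5 to 126 SPM, and the 3 epidermis markers to 84.9 to 352 against 35.0 to 93.3, with overlapping ranges. The 5 root markers went the other way, at 0 to 0.574 SPM in controls against 1.49 to 3.99 without Mg. The epidermis marker PDF1 and the xylem marker IRX3 were under 1 SPM in every control library but not in every Mg-deficient one. These genes thus did not share the direction of their sums. The part of these markers, and of the smaller number of genes with reads in the controls, in the decreases was not tested.

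On day 3, EXPA8 was the 1 gene of the 9 called in expanding leaves, in a table where 0.0589% of 15272 genes were called lower. Its signals were 157, 102, 111, 90.4 and 92.8 in controls and 37.7, 43.0, 54.8 and 56.0 in Mg-deficient leaves. The highest Mg-deficient library lay well below the lowest control, and the log2 fold change was -1.18 (SE 0.25, adjusted p = 0.0443). The call was close to the threshold and was lost in 8 of 9 fits that left out a library, with adjusted p up to 0.25, and held only without Mg-deficient library 4 (adjusted p = 0.0348).
EXPA3 was the other gene with no overlap on day 3, where 1.13% of all genes were lower with no overlap. Its signals were 89.8, 56.4, 54.9, 51.6 and 39.4 in controls and 31.0, 27.1, 32.2 and 10.2 in Mg-deficient leaves, and its log2 fold change of -1.25 had an adjusted p of 0.233. EXPA11 was at 75.5, 57.4, 19.6, 51.6 and 55.0 in controls and 28.3, 13.2, 17.4 and 55.9 in Mg-deficient leaves (log2 fold change -0.92, adjusted p = 0.594), with 3 of the 4 Mg-deficient libraries below 4 of the 5 controls.
The remaining 6 genes had log2 fold changes of -0.37 (XTH4) to 0.19 (EXPA1) on day 3, all with overlapping groups. For EXPA5 the 95% interval was -0.58 to 0.30, for EXPA6 -0.41 to 0.36 and for EXPA1 -0.27 to 0.65. The median over the 9 genes was -0.139 against 0.026 over all genes tested.

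On day 5, none of the 9 genes was called in expanding leaves, where 14.8% of 15570 genes were lower, although all 9 log2 fold changes were below 0. At an unadjusted p under 0.05, limma gave 3 genes (EXPA1, EXPA5 and EXPA10), but the share over all genes was not counted at that threshold. Limma-voom on recovered reads called EXPA1, where it called 2147 of all genes lower and 2195 higher. Mg-deficient library 1 held the lowest value of the table for all 9 genes. EXPA8 was at 149.5, 70.6, 109.6, 124 and 142 in controls and at 2.17, 133 and 111 in Mg-deficient libraries 1 to 3. EXPA11 was at 116, 88.9, 91.2, 109.7 and 125 in controls and at 0.866, 123 and 117 in Mg-deficient leaves. For both genes, libraries 2 and 3 lay within the control range.
Without Mg-deficient library 1, the log2 fold change of EXPA8 moved from -1.68 to 0.08 and that of EXPA11 from -1.82 to 0.18. EXPA5 was the exception with no overlap, at 167, 169.6, 180.4, 184 and 168 in controls and 2.18, 119.6 and 133 in Mg-deficient leaves, where 17.8% of all genes tested were lower with no overlap. Libraries 2 and 3 of EXPA5 were also below all 5 controls, and its log2 fold change was -2.23 (adjusted p = 0.11) with library 1 and -0.46 (adjusted p = 0.073) without it.
EXPA1 was at 1096, 993, 475, 1650 and 2109 in controls and 49.0, 591 and 690.1 in Mg-deficient leaves, with a log2 fold change of -2.04 (adjusted p = 0.0725) that was -0.82 without library 1. EXPA10 was at 65.8, 74.5, 91.7, 75.1 and 74.1 in controls and 0.672, 69.6 and 34.1 in Mg-deficient leaves, with log2 fold changes of -2.26 (adjusted p = 0.0946) and -0.63. Both genes had at least 1 Mg-deficient library within the range of the controls. Of the other genes, EXPA4 had the smallest difference, with 62.2, 42.8, 38.1, 42.5 and 36.6 in controls against 27.5, 30.9 and 81.0 (log2 fold change -0.08).
EXPA3 was at 37.7, 37.7, 35.7, 30.6 and 39.6 in controls and 0.527, 25.4 and 35.2 in Mg-deficient leaves, with log2 fold changes of -1.71 and, without library 1, -0.27. EXPA6 was at 301.5, 238, 184, 269.8 and 489 in controls and 35.4, 236 and 217 in Mg-deficient leaves, with -1.19 and -0.31. XTH4 was at 61.6, 87.3, 164, 93.9 and 55.5 in controls and 16.9, 93.1 and 91.7 in Mg-deficient leaves, with -0.69 and 0.11. Libraries 2 and 3 of EXPA6 and XTH4 lay within the control range, as did library 3 of EXPA3.
Library 1 differed in its markers as well. Its leaf markers summed to 22488 SPM against 50176 and 49743 in the other Mg-deficient libraries and 32688 to 48550 in controls, and its epidermis markers to 63.0 against 148 and 154 SPM, with 188 to 241 in controls. The 9 genes summed to 76.8 SPM in library 1 and to 636 and 699 in the others, against 648 to 1518 in controls. The median log2 fold change over the 9 genes was -1.71 against -0.342 over all genes tested, and -0.27 against -0.146 without library 1.

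The log2 fold changes of different days were compared by the difference of the limma estimates, adjusted over all genes tested on both days. The tables of the 3 days have separate controls. Between day 8 and day 3 of expanding leaves, the difference was below 0 for 5 of the 9 genes, and above 0 for none, against 12.6% and 20.3% of 14001 genes. It was largest for EXPA8 at -3.74 (95% interval -5.27 to -2.21, adjusted p = 0.000798) and EXPA11 at -3.27 (95% interval -4.31 to -2.23, adjusted p = 6.56e-06). EXPA5 differed by -2.22 (adjusted p = 0.00567), EXPA1 by -1.78 (adjusted p = 0.0117) and EXPA6 by -1.67 (adjusted p = 0.00196). For these 5 genes the log2 fold change was therefore lower on day 8 than on day 3, and 4 of them had no call on day 3. In Mg-deficient leaves, mean SPM on days 3 and 8 was 15.0 and 10.6 for EXPA11 and 25.3 and 4.77 for EXPA8. It was 73.1 and 9.88 for EXPA5, 443 and 125 for EXPA1 and 154 and 22.0 for EXPA6. The control means, in the same order, were 26.2 and 228, 55.8 and 136, 74.5 and 58.1, 359 and 368, and 152 and 76.8. The larger contrast of EXPA11 on day 8 thus went with a higher control level. XTH4 differed by -1.19 (95% interval -2.20 to -0.17, adjusted p = 0.0677), and for EXPA3, EXPA4 and EXPA10 the intervals included 0.
No difference between days 5 and 3 (where 10.5% of genes were below 0 and 7.41% above) or between days 8 and 5 (3.53% and 13.2%) was called for the 9 genes. Without Mg-deficient library 1 of day 5, the difference between days 8 and 5 was called below 0 for 5 genes (EXPA5, EXPA6, EXPA8, EXPA11 and XTH4). The same omission gave a call in the other direction between days 5 and 3, for EXPA8 at 1.26 (adjusted p = 0.0197). The shares over all genes were not counted for the differences without library 1. Whether 5 of 9 genes stands out from all genes there is therefore not known.

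**Figure D2:**
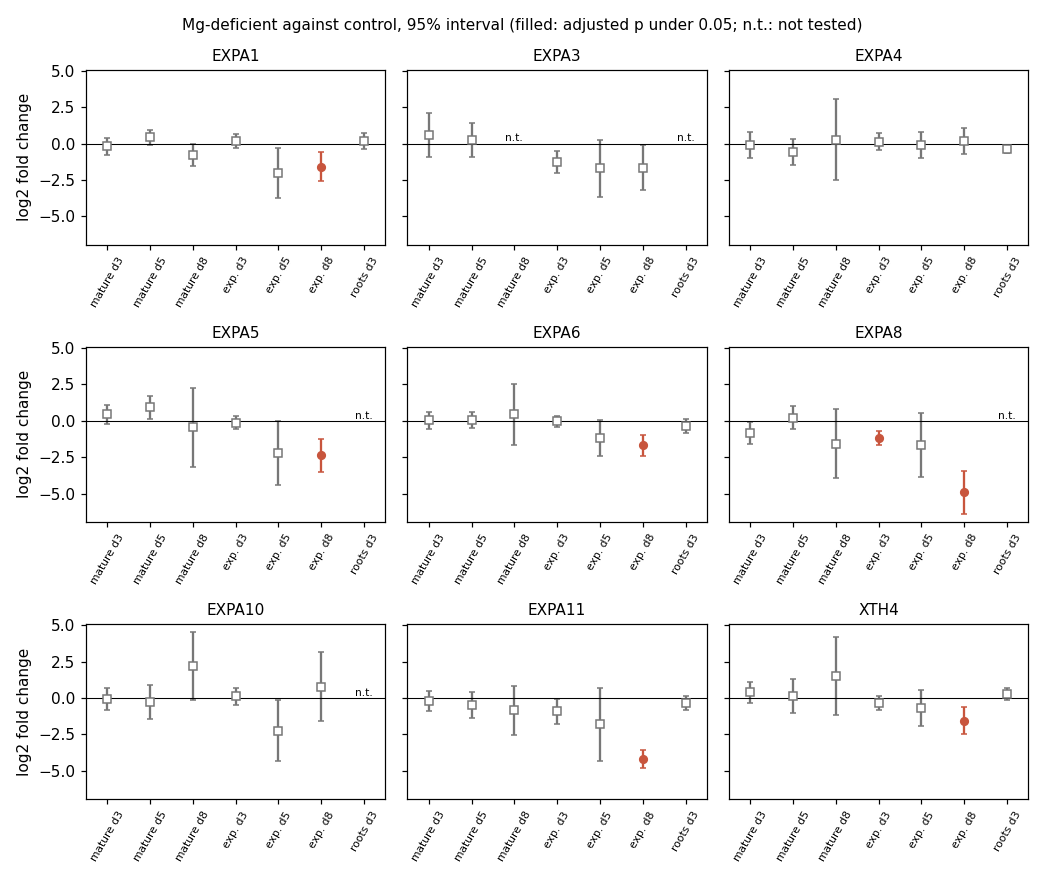
Log2 fold change of Mg-deficient against control plants (vertical axis, 95% interval) for each gene in mature leaves, expanding leaves (exp.) and roots by day (d). Filled circles mark adjusted p under 0.05, open squares the other tested genes and n.t. genes under the minimum mean signal. All 7 calls (6 on day 8 and 1 on day 3) are in expanding leaves.

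In mature leaves none of the 9 genes was called at any of the 3 times, where 0%, 0% and 0.173% of genes were called lower on days 3, 5 and 8, and 0%, 0% and 3.43% higher. Limma-voom on recovered reads called none of all genes on days 3 and 5. On day 8 it called EXPA1, where 101 of all genes were lower and 512 higher. At an unadjusted p under 0.05, limma gave 1 of the 9 genes on each day, but the share over all genes was not counted at that threshold. On day 3 the 1 gene was EXPA8, at 97.0, 142, 102 and 87.7 in controls and 63.7, 93.8 and 33.6 in Mg-deficient leaves (log2 fold change -0.84, adjusted p = 0.98), with library 2 within the control range. The other 8 genes had log2 fold changes of -0.19 (EXPA1) to 0.59 (EXPA3), and all groups overlapped.
EXPA5 on day 5 was at 82.1, 23.8, 70.8, 89.2 and 44.6 in controls and at 109.9, 90.0 and 123 in Mg-deficient leaves. All 3 Mg-deficient libraries lay above the controls, as for 2.24% of genes tested, and the log2 fold change was 0.91 (adjusted p = 0.693). The other 8 genes overlapped between groups, with log2 fold changes of -0.57 (EXPA4) to 0.42 (EXPA1).
On day 8, EXPA1 was at 527, 786, 576 and 963 in controls and 815, 366, 438 and 204 in Mg-deficient leaves (log2 fold change -0.78, adjusted p = 0.23). Here 8 of the 9 genes were tested, since EXPA3 had a mean signal under 5. The controls of this table spread widely, with EXPA11 at 25.03, 30.4, 106 and 55.5 against 29.0, 13.4, 41.7 and 24.6 without Mg (log2 fold change -0.85, 95% interval -2.54 to 0.85). EXPA8 was at 8.19, 37.4, 80.9 and 77.0 in controls and 49.9, 7.74, 63.8 and 0 in Mg-deficient leaves, with an interval of -3.96 to 0.81. EXPA10 and XTH4 went the other way, at 2.205 (95% interval -0.12 to 4.53) and 1.50 (-1.16 to 4.15), neither called. The other EXPA10 controls than control 1 were at 0.0194 to 0.314. Of the 8 genes tested, 4 log2 fold changes were below 0 and 4 above. The log2 fold change found in expanding leaves on that day lay inside the mature-leaf interval for EXPA5 (-3.19 to 2.28), EXPA4 and EXPA10. For EXPA8, EXPA11 and XTH4 it lay outside. For EXPA1 (-1.59 against a bound of -1.51) and EXPA6 (-1.69 against -1.67) it lay just outside. This comparison leaves out the error of the expanding-leaf value, and the difference itself is tested below. The median log2 fold change of the 9 genes was -0.05, 0.145 and -0.091 on days 3, 5 and 8, against -0.043, -0.022 and 0.905 over all genes tested.

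Expanding and mature leaves were then compared on the same day, by the difference of their log2 fold changes. On day 8 the difference was called for EXPA11, at -3.34 (95% interval -5.13 to -1.56, adjusted p = 0.0164), where 4.29% of 12956 genes were below 0 and 1.66% above. For EXPA8 it was -3.35 (95% interval -6.07 to -0.62, adjusted p = 0.14) and for XTH4 -3.05 (95% interval -5.83 to -0.27, adjusted p = 0.199), both with wide intervals. Neither EXPA6 (-2.13, adjusted p = 0.269) nor EXPA1 (-0.82, adjusted p = 0.465) was called. EXPA11 lost the call when Mg-deficient library 1 or 3 of mature leaves was left out (adjusted p = 0.061 and 0.0879).
On day 5 the difference was called for EXPA5, at -3.15 (adjusted p = 0.0497), where 10.8% of 14522 genes were below 0 and 9.96% above. EXPA5 was higher without overlap in mature leaves and lower without overlap in expanding leaves on this day, as for 2.24% and 17.8% of genes. Limma called it in neither class (adjusted p = 0.693 and 0.11). In mature leaves the lowest Mg-deficient signal was 90.0 and the highest control 89.2. Without Mg-deficient library 1 of expanding leaves, the difference was -1.37 (adjusted p = 0.025). The call lay at the threshold and was lost in 9 of 16 fits that left out a library (adjusted p 0.0195 to 0.0863). On day 3 none of the 9 genes differed between the leaf classes, nor did any of the 14238 genes tested (0%).

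In roots on day 3, 5 of the 9 genes reached the minimum mean signal and none was called, where 0.112% of 16905 genes were called lower and 0.0887% higher. At an unadjusted p under 0.05, limma gave 1 gene, EXPA4, but the share over all genes was not counted at that threshold. Limma-voom on recovered reads called none of the 9 genes, where it called 13 of all genes lower and 29 higher. EXPA4 had a lowest, median and highest signal of 256, 296 and 321 in the 6 controls and signals of 233, 185 and 256 in the 3 Mg-deficient libraries. The highest Mg-deficient library lay just under the lowest control, so the groups did not overlap, as for 2.38% of genes tested. The log2 fold change was -0.38 (95% interval -0.67 to -0.08, adjusted p = 0.326). EXPA1, EXPA6, EXPA11 and XTH4 had overlapping groups and log2 fold changes of -0.36 to 0.25. EXPA3, EXPA5, EXPA8 and EXPA10 were at or under 6.54 in every root library and were not tested. None of the 5 genes differed in log2 fold change between roots and expanding leaves on day 3, where 0.0073% of genes were below 0 and 0% above.

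The same genes differed in where they were expressed in control plants. These levels are given in SPM, per kb of exon where genes are compared, and as descriptions, since the tables were adjusted separately. EXPA1 had the highest mean per kb of the 9 genes in all 6 leaf tables, from 232 ± 65 SPM per kb in expanding leaves on day 3 to 465.5 ± 131.0 in mature leaves on day 8 (SD). It supplied 26.1 to 87.1% of the summed signal of the 9 genes in single control leaf libraries. In roots its mean was 13.7 SPM per kb, and EXPA4 ranked first at 91.6 ± 8.0 SPM per kb.
EXPA4 stood apart by this pattern: its mean was 137 ± 12 SPM in roots, above the range of every leaf table, and 19.0 to 27.6 SPM in leaves, where the ranges of neighbouring tables overlapped. EXPA5, EXPA8 and EXPA10 showed the reverse in their means, with root means of 0.414, 0.714 and 0.894 SPM. The range of EXPA10 in mature leaves on day 8 (mean 2.39 ± 4.34 SPM) overlapped with that in roots. For EXPA5 the leaf means ran from 17.0 ± 26.1 (mature leaves, day 8) to 81.9 ± 3.7 SPM (expanding leaves, day 5), with overlapping ranges between neighbours in the order. The means of EXPA10 were highest on day 3 of expanding leaves at 73.8 ± 33.0, followed by 35.9 ± 4.6 and 16.2 ± 18.7 SPM at days 5 and 8, again with overlapping ranges.

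EXPA8, EXPA11 and XTH4 shared their highest control level, in expanding leaves on day 8. In expanding leaves of day 3, day 5 and day 8, EXPA11 was at 26.2 ± 10.3, 50.0 ± 7.1 and 228 ± 66 SPM. The day 8 range lay above that of every other table, the next being mature leaves on day 8 at 57.2 ± 44.5. XTH4 was at 49.2 ± 8.6, 43.6 ± 20.6 and 81.3 ± 11.7 SPM on the 3 days, with the day 8 range separate from day 3, the next in the order of means, but overlapping with day 5, where control 3 reached 77.6 SPM. EXPA8 was at 55.8 ± 13.6, 56.0 ± 14.3 and 136 ± 57 SPM, and its day 8 range overlapped with mature leaves on day 5 (71.0 ± 34.4). All 3 were among the 6 genes that were lower in Mg-deficient leaves on this day.
EXPA3 and EXPA6 had their highest control level on day 3 of expanding leaves. EXPA3 was at 29.5 ± 9.5, 17.1 ± 1.7 and 10.4 ± 7.0 SPM on days 3, 5 and 8, with day 3 separate from day 5. EXPA6 was at 152 ± 34, 139.5 ± 54.0 and 76.8 ± 12.3 SPM, and its neighbouring tables overlapped.

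**Figure D3:**
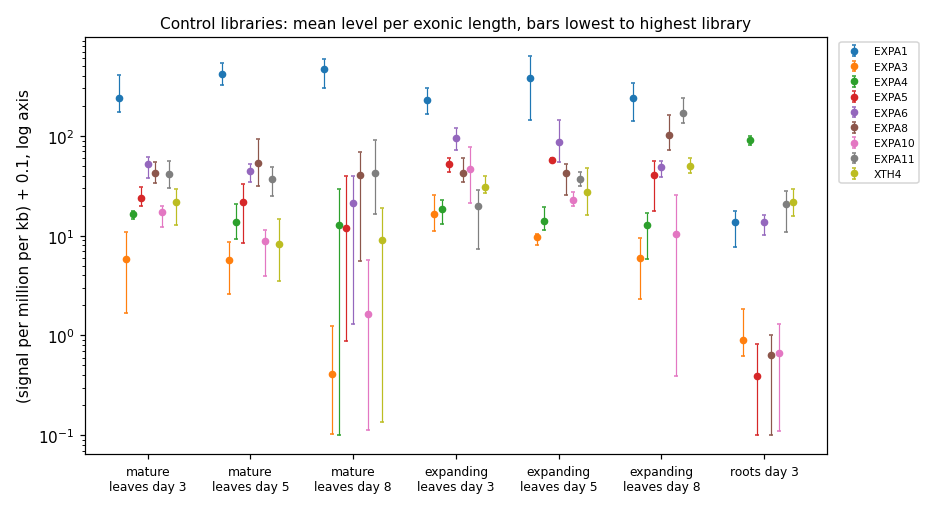
Mean level of each gene in the control libraries of the 7 tables, as SPM per kb of exon plus 0.1 (log axis), with bars from the lowest to the highest library. EXPA1 is highest in all 6 leaf tables and EXPA4 in roots.

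Across the 26 expanding-leaf libraries, 7 of the genes varied together and EXPA4 and EXPA10 did less so. Each value was log2(signal + 1) centred on the control mean of its table, and the libraries share the contrast between treatments, so that the correlations are descriptions. The 21 pairs without EXPA4 and EXPA10 had Pearson r of 0.654 to 0.936 (median 0.792), and 0.507 to 0.933 (median 0.741) over the 25 libraries without Mg-deficient library 1 of day 5. EXPA8 and EXPA11 were the closest pair, at 0.936 over 26 and 0.933 over 25 libraries. The 8 pairs with EXPA4 had r of -0.019 to 0.353, and the 8 pairs with EXPA10 0.132 to 0.61, falling to -0.302 to 0.3 without that library.
The genes outside the set with the pattern most like the mean of the 9, of 8332 ranked over the same 26 libraries, were AT2G28605 (r = 0.964), AT5G11330 (0.963), the acetyltransferase gene NSI (0.96), the peptide hormone gene RALFL34 (0.959) and AT5G23280 (0.957). Over 25 libraries their r was 0.915 to 0.949.

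**Figure D4:**
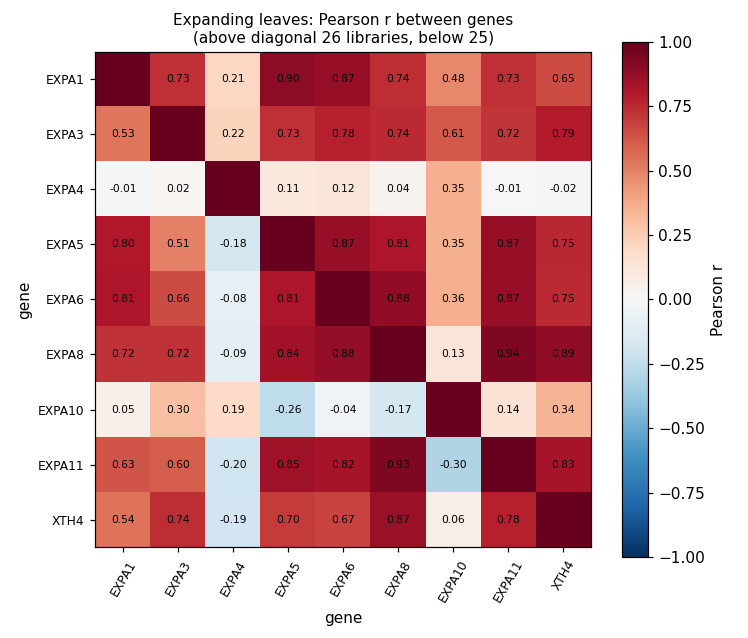
Pearson r between pairs of the 9 genes over expanding-leaf libraries (colour scale from -1 to 1), with 26 libraries above the diagonal and 25, without Mg-deficient library 1 of day 5, below it. Rows and columns of EXPA4 and EXPA10 hold the lowest values, and the EXPA8 and EXPA11 pair the highest (0.94 and 0.93).

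Other genes of wall loosening and wall synthesis were counted from lists, in the same fits, and their counts are read against the 14.9% of all genes that were lower and the 30.8% that were higher on day 8. In expanding leaves on day 8, of 26 other expansins 7 were tested, with 1 lower and 2 higher. Expansin-like EXLB1 was at a mean of 56.7 in controls and 0.363 in Mg-deficient leaves (log2 fold change -5.22, adjusted p = 3.03e-05). The expansin-like genes EXLA2 and EXLA1 were higher, with log2 fold changes of 3.72 and 2.42. Thus no other alpha-expansin was called on day 8.
The other XTH genes moved in both directions on day 8: of 18 tested, 6 were lower and 7 higher. XTH24 rose from 146 ± 73 to 1547 ± 319 (log2 fold change 3.51, adjusted p = 2.71e-06), and XTH22, known as a touch-induced gene, from 1.92 ± 3.72 to 758 ± 351. XTH23 and XTH18 had no signal in any control and means of 299.6 ± 129.9 and 215 ± 115 without Mg. XTH4 was thus lower together with 6 of the 18 other XTH genes, while 7 were higher. The median log2 fold change of the 18 was 1.65 against 0.634 over all genes. It was the same with the 4 genes that were at 0 in every control set at their bound against 3 reads per library.
Primary wall cellulose synthesis genes were lower in 2 of 8 and higher in none (median -0.721): COB, a glycosylphosphatidylinositol-anchored protein needed for oriented cell expansion, at -1.28 (adjusted p = 0.00235) and the cellulose synthase subunit CESA3 at -1.17 (adjusted p = 0.00828). The plasma membrane proton pumps, which acidify the wall in which expansins work, were lower in 2 of 4 (median -0.852), AHA3 at -1.59 (adjusted p = 0.000225) and AHA11 at -2.35 (adjusted p = 0.000382). Xyloglucan synthesis genes were higher in 3 of 6 and lower in 1 (median 1.44). In that list the galactosyltransferase MUR3 (3.83), the xylosyltransferase XXT1 (1.68) and the fucosyltransferase FUT1 (2.63) rose, and the xylosyltransferase XXT2 fell (-1.09).
Among 8 growth regulators of cell elongation, 4 were lower and 2 higher on day 8 (median -1.08). HBI1, a transcription factor known to bind expansin promoters, was at 331 ± 127 in controls and 34.6 ± 17.3 in Mg-deficient leaves (log2 fold change -3.31, adjusted p = 8.58e-05). PRE1, a partner in the same basic helix-loop-helix module, was at -5.04 and the phytochrome-interacting factor PIF4 at -2.06, while the growth-promoting gene ARL was higher at 5.44.

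**Figure D5:**
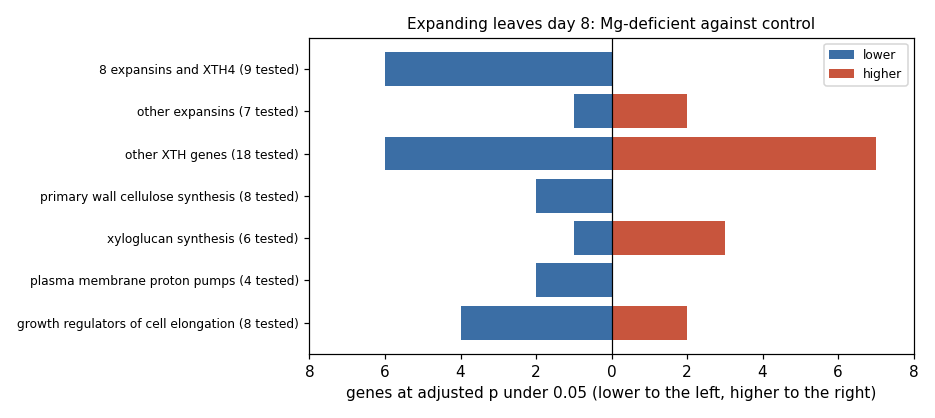
Number of genes lower (left, blue) and higher (right, red) in Mg-deficient than in control expanding leaves on day 8 at an adjusted p under 0.05, for the 9 genes and 6 further lists, with the number tested in brackets. The 9 genes have 6 lower and 0 higher, the other XTH genes 6 lower and 7 higher.

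On day 5, when none of the 9 genes was called, 4 of 17 other XTH genes were lower and 3 higher in expanding leaves, where 14.8% of all genes tested were lower and 13.7% higher. XTH24 rose from 16.9 ± 8.2 to 409 ± 116 (log2 fold change 4.69, adjusted p = 0.000226) and XTH22 from 11.2 ± 14.1 to 182.5 ± 8.8 (4.76), while XTH6 fell (-3.68). Of 8 other expansins EXPA16 rose, from 26.6 ± 8.3 to 88.7 ± 27.4 (log2 fold change 1.70, adjusted p = 0.00767). CESA6 was lower (-1.34), and of 8 growth regulators BES1 (-3.86), HBI1 (-1.52) and PRE1 (-2.25) were lower and ARL (2.15) higher. Without Mg-deficient library 1, 3 of 13 other XTH genes were lower and 2 higher, against 17% and 14.8% of all genes tested. The log2 fold changes were then 4.49 for XTH24, 4.75 for XTH22, -2.14 for XTH6, 1.51 for EXPA16, -0.76 for CESA6, -2.68 for BES1, -1.27 for HBI1 and 1.73 for ARL, all still called, while PRE1 (-1.37, adjusted p = 0.0585) lost its call and CESA1 (-0.80) was also lower. Elsewhere the lists held a single call, XXT2 in roots (log2 fold change -0.82, adjusted p = 0.0244).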

How the data were processed

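Libraries were made from mRNA by the strand-specific BrAD-seq method and sequenced by the authors as 50 bp single-end reads on a HiSeq instrument, with TAIR10 and R 3.5.0 named in the submitters' processing notes. The deposited signal values are read counts that the authors adjusted with edgeR to a common library size, separately in each of the 7 tables. Each table's genes whose mean signal reached 5 were tested with limma 3.58.1 (R 4.3.3, trend) on log2(signal + 1), 2-sided, with Benjamini-Hochberg adjustment over all genes tested. This took the place of the authors' exact test on counts, which was not run, also not on the recovered reads described below. Fold changes on this scale understate the change of low genes. Differences between tables were tested from the 2 estimates and their SEs with Satterthwaite degrees of freedom, taking the tables as independent. On simulated data this test ran a little above its nominal error rate. Recovered reads were obtained by undoing the adjustment at a dispersion of 0.05, and 94.66 to 100% of values per library came out whole within 0.001. No libraries of a group were duplicates. Alternatives were pseudocounts of 0.25 and 5, a filter at 20 or none, median-of-ratios scaling, voom on recovered reads, array weights, a replicate block and leaving out each library. The 9 genes, the lists and the markers were chosen with earlier results of these data known. Of the other lists, up to 4 genes of each by smallest p among those called are named (CESA1 was added after its values were seen), and the 5 genes of most similar pattern. Depth limits the precision of low values, most in mature leaves on day 8.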

Additional observations from a re-analysis of the deposited data

Results flagged for a closer look

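Of 90 groups of 4 to 6 libraries of a gene, 9 held a library far from the others of its group, and chance flags about 1 in 20 groups. In mature leaves on day 3, EXPA1 was at 1207 in control 1 against 520 to 611 in the other controls. In mature leaves on day 8, control 1 stood out for EXPA3 (2.31 against 0.00523 to 0.082) and EXPA10 (10.0 against 0.0194 to 0.314), and control 4 for EXPA5 (58.3 against 1.05 to 8.14). In expanding leaves on day 3, XTH4 was at 127 in control 1 against 87.3 to 95.3 in the others and at 94.5 in Mg-deficient library 2 against 66.8 to 70.3, while EXPA10 was at 99.9 in Mg-deficient library 4 against 160 to 171. EXPA4 was at 62.2 in control 1 of expanding leaves on day 5 against 36.6 to 42.8, and EXPA3 at 6.54 in control 1 of roots against 1.93 to 2.64.

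The response to Mg deficiency was called different between days or leaf classes in 7 cases, by the test of the difference of log2 fold changes. Between day 8 and day 3 of expanding leaves the difference was -1.78 for EXPA1, -2.22 for EXPA5, -1.67 for EXPA6, -3.74 for EXPA8 and -3.27 for EXPA11. Of all genes tested, 12.6% were below 0 there and 20.3% above. Between expanding and mature leaves the difference was -3.15 for EXPA5 on day 5 and -3.34 for EXPA11 on day 8, where 10.8% and 4.29% of all genes were below 0. The EXPA5 call lay at the threshold (adjusted p = 0.0497) and was lost in 9 of 16 fits that left out a library. EXPA11 lost its call in 2 of 17 such fits.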

How the results depend on the processing

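The 6 decreases in expanding leaves on day 8 kept their direction under all alternatives, with 4 to 7 genes called, and the count of 5 differences between days 8 and 3 was 5 or 6 throughout. Over all genes of that day, 1700 (replicate block) to 2582 (voom) were lower. The genes called higher were 3549 (filter at 20) to 5859 (no filter). These ranges leave out the fits without a library. In expanding leaves on day 3, the 1 call was lost (0 genes) with a pseudocount of 0.25, voom on recovered reads or the replicate block. With voom, 1 gene (EXPA1) was called in mature leaves on day 8, where 101 of all genes were lower and 512 higher. In expanding leaves on day 5 voom also called 1 (EXPA1), where 2147 of all genes were lower and 2195 higher. For the difference between expanding and mature leaves on day 5 (1 gene), 0 were called with a pseudocount of 0.25, a filter at 20 or the replicate block, and 2 with a pseudocount of 5, no filter, median-of-ratios scaling, voom or array weights. On day 8 it was 2 with a pseudocount of 5. Between days 5 and 3 (0 genes), 1 was called with voom and 1 with array weights. Between days 8 and 5 (0 genes), 2 were called with a pseudocount of 5, 1 with voom and 2 with array weights.

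Leaving out each library gave 0 to 1 genes called in mature leaves on day 8 and in expanding leaves on day 3, 0 to 3 on day 5 and 6 to 7 on day 8. The call in mature leaves was EXPA10, higher without control 1, where the other controls were at 0.0194 to 0.314. The 3 on day 5 (EXPA1, EXPA3 and EXPA5) came without Mg-deficient library 3, which left Mg-deficient libraries 1 and 2. Leaving out a library gave 0 to 3 differences between leaf classes on day 5, 0 to 2 on day 8, 0 to 1 between days 5 and 3 (EXPA8 above 0 without Mg-deficient library 1 of day 5, EXPA10 below 0 without library 2, EXPA1 below 0 without library 3 or without Mg-deficient library 4 of day 3), 0 to 5 between days 8 and 5, and 5 to 6 between days 8 and 3. The shares over all genes were not counted in these fits, except for the calls in expanding leaves on day 5 without Mg-deficient library 1. Some log2 fold changes that were not called changed sign. In expanding leaves on day 3 these were EXPA6 with voom (0.024), EXPA5 with array weights (0.063) and EXPA10 with the replicate block (-0.132), on day 5 EXPA4 with voom (0.026) and XTH4 with array weights (0.035), and on day 8 EXPA4 with voom (-0.043). Over the fits that left out a library, day 3 values ran from -0.045 to 0.266 for EXPA4, -0.281 to 0.055 for EXPA5, -0.125 to 0.056 for EXPA6 and -0.13 to 0.33 for EXPA10. Day 5 values ran from -0.57 to 0.20 for EXPA4, -2.62 to 0.078 for EXPA8, -2.84 to 0.18 for EXPA11 (the highest values of both without Mg-deficient library 1) and -1.09 to 0.11 for XTH4, and day 8 values from -0.16 to 0.36 for EXPA4 and -0.18 to 1.62 for EXPA10. The cause was not tested.

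Replicate numbers did not pair the libraries (correlations of same-numbered deviations -0.153 to 0.231). With the replicate block 6 genes were called in expanding leaves on day 8, while over all genes of expanding leaves on day 5 it left 200 lower and 663 higher, against 2297 and 2132 without it. Another pseudocount or scaling moved the median log2 fold change of all genes by more than 0.1 in mature leaves on day 8 (0.201 with 0.25, -0.355 with 5, -0.268 with median of ratios), in expanding leaves on day 5 (0.12 with 5, 0.149 with array weights) and on day 8 (0.111 with 0.25, -0.232 with 5).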
